A study of Homo sapiens with 11 samples.

Results

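The class I antigen presentation genes described here are HLA-B, HLA-C, HLA-E, HLA-F, B2M, TAP1, TAP2, TAPBP and NLRC5. They were chosen by name, and every array probe annotated to them was taken. All 9 genes were measured, by 23 of the 41000 probes on the array, and they are 9 of the 17372 genes that were tested. RNA came from CCRF-CEM, an established human T-cell acute lymphoblastic leukemia line, and from its sublines that grow in the presence of the proteasome inhibitor bortezomib (BTZ). CEM/BTZ7 (3 samples), CEM/BTZ100 (1 sample) and CEM/BTZ200 (1 sample) are sublines resistant to 7, 100 and 200 nM BTZ, and their RNA was taken 24 h after addition of that same concentration. CEM/BTZ-200 (1 sample) is the 200 nM subline grown without BTZ for weeks to months, since the sources differ on the period. They differ as well on whether the other sublines had a drug-free week before the 24 h exposure. CEM/WT_BTZ (3 samples) is the parental line exposed to 7 nM BTZ for 24 h, and CEM/WT (2 samples) is the untreated parental line. Each subline stems from the same cell line, so no group stands for a second donor. The labels number the replicates without saying whether they were separate cultures, and p-values then measure only the spread between these samples.

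Class I molecules carry peptides from inside the cell to its surface, where cytotoxic T cells read them. The proteasome cuts proteins into peptides, TAP1 and TAP2 together pump these into the endoplasmic reticulum, and TAPBP (tapasin) holds empty class I molecules next to that pump while peptides are loaded. HLA-B and HLA-C are classical heavy chains. HLA-E and HLA-F are nonclassical heavy chains, HLA-E being best known for showing leader peptides to natural killer cells, and B2M is the light chain that all of them need to be stable. NLRC5 is a transcriptional coactivator of class I genes, which it reaches through factors bound to the so-called SXY part of their promoters, and interferon raises many of these genes together. BTZ blocks the enzyme that makes most of the peptides these genes handle.

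The promoters show what these genes share upstream of their starts. RefSeq windows of 300 bases (250 before the transcription start and 50 from it on, build GRCh38.p14) were at hand for 7 of the 9 genes: HLA-B, HLA-C, HLA-F, B2M, TAP1, TAP2 and TAPBP. The 4 motifs searched on both strands were the interferon-stimulated response element core (GAAA, any 2 bases, GAAA), the kappa B site (by name), the CRE core TGACG and the CCAAT box. In the windows printed here, 5′ to 3′ on the strand of the gene, capitals mark any match to one of them, and neighbouring or overlapping matches run together. HLA-B (chr6:31357130-31357429, minus strand) and HLA-F (chr6:29723184-29723483, plus strand) are shown for the heavy chains, and B2M (chr15:44711267-44711566, plus strand) for the light chain. TAP1 (chr6:32853655-32853954, minus strand) and TAP2 (chr6:32838690-32838989, minus strand) are shown as the transporter genes, whose fitted changes under BTZ had the opposite sign to those of the heavy chains.
HLA-B: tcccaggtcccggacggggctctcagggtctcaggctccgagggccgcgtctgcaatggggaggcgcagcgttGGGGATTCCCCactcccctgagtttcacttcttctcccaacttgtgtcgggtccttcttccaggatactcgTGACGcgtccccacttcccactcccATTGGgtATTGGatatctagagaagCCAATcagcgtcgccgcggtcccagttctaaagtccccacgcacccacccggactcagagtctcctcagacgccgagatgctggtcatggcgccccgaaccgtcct
HLA-F: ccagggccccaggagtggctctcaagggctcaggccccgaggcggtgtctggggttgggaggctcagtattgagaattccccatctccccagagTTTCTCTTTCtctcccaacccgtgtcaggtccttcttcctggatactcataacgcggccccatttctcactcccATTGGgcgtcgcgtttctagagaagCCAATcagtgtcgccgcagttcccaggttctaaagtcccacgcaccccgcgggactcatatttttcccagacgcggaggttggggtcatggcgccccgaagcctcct
B2M: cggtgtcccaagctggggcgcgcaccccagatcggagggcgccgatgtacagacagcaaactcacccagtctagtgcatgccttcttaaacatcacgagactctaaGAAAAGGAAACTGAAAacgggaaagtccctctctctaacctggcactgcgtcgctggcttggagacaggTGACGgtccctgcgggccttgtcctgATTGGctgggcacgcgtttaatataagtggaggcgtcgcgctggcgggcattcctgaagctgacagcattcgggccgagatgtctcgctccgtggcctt
TAP1: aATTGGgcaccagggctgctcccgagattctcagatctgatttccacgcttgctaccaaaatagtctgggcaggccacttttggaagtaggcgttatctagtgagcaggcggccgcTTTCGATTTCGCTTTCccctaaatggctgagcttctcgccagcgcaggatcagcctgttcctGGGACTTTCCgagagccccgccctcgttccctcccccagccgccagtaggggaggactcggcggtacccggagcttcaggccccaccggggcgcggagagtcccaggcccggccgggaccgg
TAP2: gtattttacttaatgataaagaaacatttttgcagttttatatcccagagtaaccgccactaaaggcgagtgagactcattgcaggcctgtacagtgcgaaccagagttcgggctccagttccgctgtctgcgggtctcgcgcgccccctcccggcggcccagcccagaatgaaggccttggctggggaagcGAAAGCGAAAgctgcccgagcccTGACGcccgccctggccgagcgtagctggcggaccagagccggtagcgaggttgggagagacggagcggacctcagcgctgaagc

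The interferon-stimulated response element core was found in 5 of the 7 first promoters, namely those of HLA-F, B2M, TAP1, TAP2 and TAPBP, whereas 3.57% of the 35116 windows in the table hold it. In HLA-F it lies at -156 to -147, counted from the start at +1, and in TAP2 at -58 to -49. In B2M, TAP1 and TAPBP there are 2 overlapping matches each, which in TAP1 begin at -134 and -128. HLA-B and HLA-C have no exact match in this window. The kappa B site was found in 4 of the 7 (HLA-B, HLA-C, TAP1 and TAPBP), against 8.4% of all windows. HLA-B has its CRE core at -106 to -102 and CCAAT boxes on the opposite strand at -81 to -77 and -74 to -70. HLA-C (chr6:31272043-31272342, minus strand) has a CRE core at -105 to -101 and a CCAAT box on the opposite strand at -80 to -76. The CRE core stood in 4 of 7 (HLA-B, HLA-C, B2M and TAP2) and the CCAAT box in 5 of 7 (HLA-B, HLA-C, HLA-F, B2M and TAP1), while 24.6% and 34.6% of all windows hold these short motifs. TAP1 and PSMB9, which encodes an immunoproteasome subunit, point away from each other with 488 bases between their starts. TAP1 has a further annotated start, whose window holds none of the 4 motifs. These are matches of letters only.

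Levels are given as log2 of the quantile-normalized fluorescence intensity of the brightest probe of each gene, so 1 unit is a doubling, and levels of different probes are not compared. Medians of the deposited intensities were 67.96 in CEM/BTZ200 and 67.3 in CEM/BTZ-200 and lay between 124 and 188.5 in the other 9 samples. The level that 95% of the negative control spots stay below, used here as background, was 4.138 in CEM/BTZ200, 4.473 in CEM/BTZ-200 and 2.797 to 3.787 in the rest. The brightest probe of each of the 9 genes was above it in all 11 samples. Of the T lymphoblast markers, 9 of 9 measured were above it in every sample, but so were 2 of 2 B cell, 3 of 4 myeloid and 3 of 3 epithelium markers, so that this limit alone does not tell the cell type. The summed intensity of the T lymphoblast markers was 99200 to 124000 in CEM/BTZ7 and 65500 to 93200 over the 3 single samples. The myeloid markers summed to between 361 and 2500 in every sample, the epithelium markers to between 1850 and 7640, with the highest values in CEM/WT_BTZ. The 2 B cell markers summed to 17100 to 36700 in CEM/WT_BTZ, 4920 to 8540 in CEM/BTZ7 and 9410 to 12800 in CEM/WT.

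**Figure D1:**
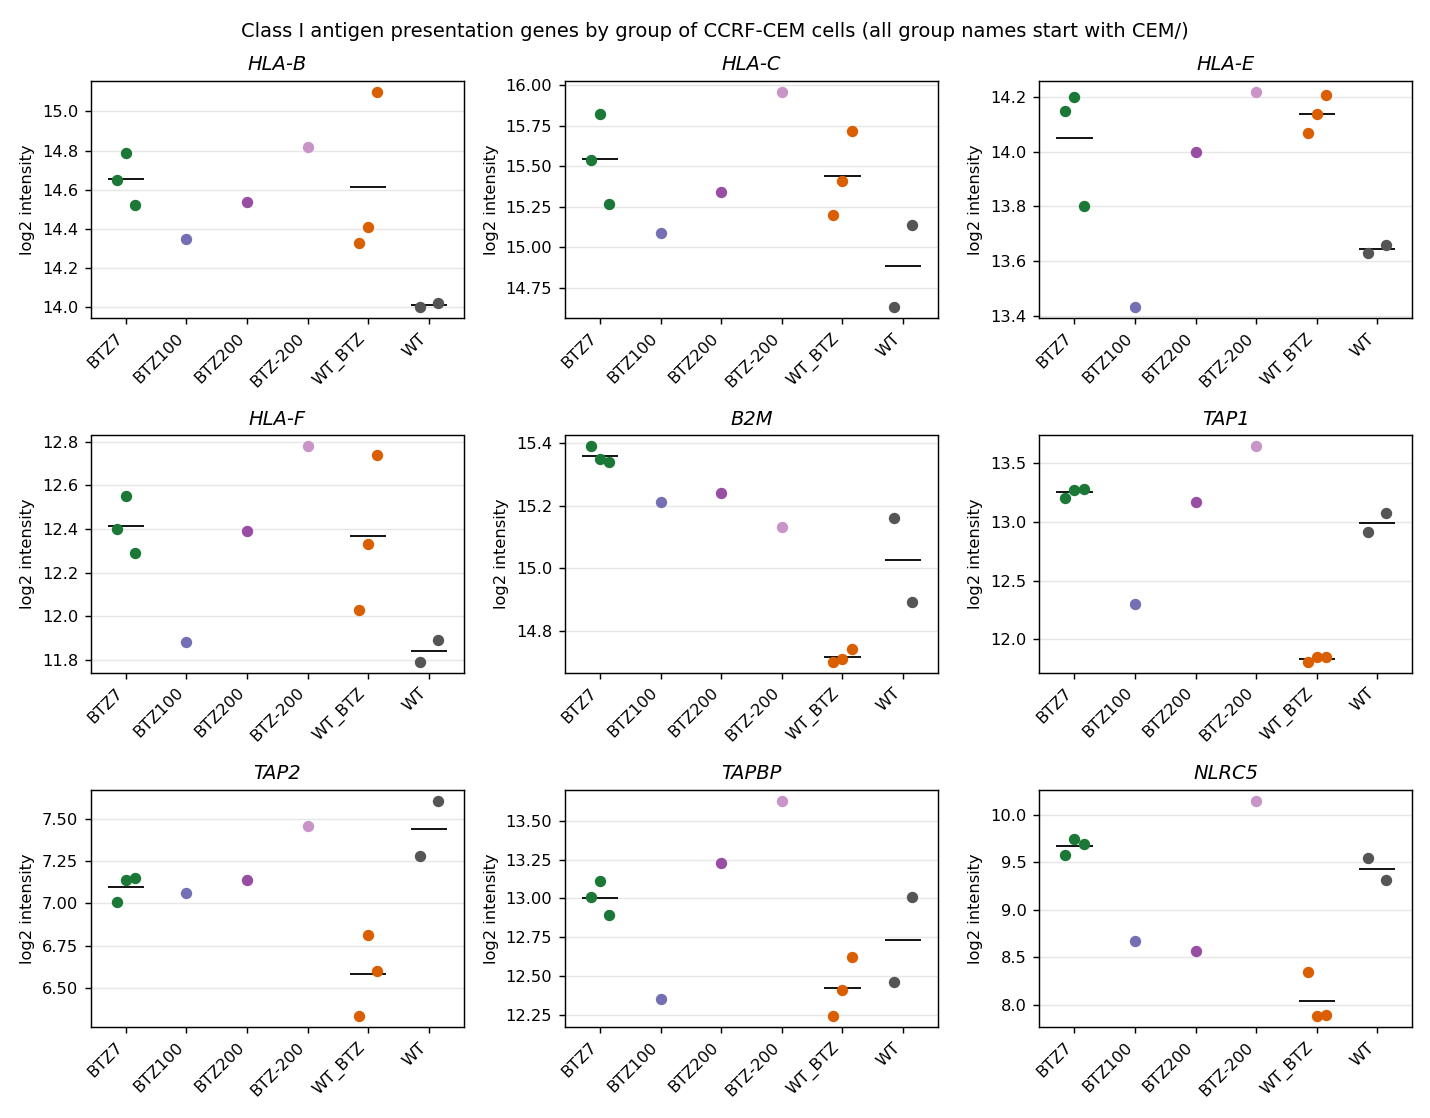
Level (log2 quantile-normalized intensity, vertical axis, scaled separately for each gene) of the brightest probe of the 9 class I genes in each of the 11 samples by group, with a bar at the mean of the groups of 2 or 3 samples. NLRC5 and TAP1 lie lowest in CEM/WT_BTZ (NLRC5 at 7.88 to 8.35), while HLA-B lies lowest in CEM/WT (14 and 14.02).

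Exposure of parental cells to 7 nM BTZ for 24 h was compared with no exposure to see how the pathway responds when its peptide source is blocked. NLRC5 and TAP1 fell, by 1.42 and 1.15 on the log2 scale, and no member rose. They are 2 of 9 members called at an adjusted p under 0.05, beside 15.5% of all genes tested in this comparison (1127 higher and 1565 lower). The 4 heavy chains were higher in all 3 exposed samples than in both untreated ones, by 0.53 to 0.66, but did not pass the test. The median over the members was -0.26, beside -0.021 over all genes. For 8 of 9 members the samples of the groups did not overlap, 4 of them higher and 4 lower in CEM/WT_BTZ, and 46.4% of all genes had groups that did not overlap.

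NLRC5, the coactivator, stood at 8.35, 7.88 and 7.89 in CEM/WT_BTZ, against 9.55 and 9.32 in CEM/WT. Every exposed sample lay below both untreated samples. The log2 fold change was -1.42 (SE 0.215, 95% interval -1.94 to -0.91, limma adjusted p = 0.0104), which makes the level 0.373 times that of CEM/WT. TAP1, which forms the peptide transporter with TAP2, stood at 11.81, 11.85 and 11.85 in CEM/WT_BTZ, against 12.91 and 13.07 in CEM/WT. The exposed samples spanned a far narrower range than their distance to the untreated ones. Its log2 fold change was -1.15 (SE 0.171, 95% interval -1.56 to -0.74, limma adjusted p = 0.0101). Both calls rest on both CEM/WT samples: without either one, the adjusted p was 0.0736 or 0.114 for NLRC5 and 0.0794 or 0.0869 for TAP1, with log2 fold changes of -1.47 to -1.37 and -1.25 to -1.07. Fitting these groups alone also ended both calls (adjusted p 0.0581 and 0.0608). Summed intensities of the T lymphoblast markers were lower as well, at 42400 to 53800 in CEM/WT_BTZ, against 75500 to 113000 in CEM/WT. Those of the myeloid markers were also lower, at 479 to 561 against 1400 to 1770, and those of the B cell and epithelium markers higher. The part of these markers in the results was not tested, and fewer cells of a type and less RNA per cell cannot be told apart in bulk samples.

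TAP2, the partner of TAP1, had levels of 6.33, 6.81 and 6.6 in CEM/WT_BTZ, against 7.28 and 7.61 in CEM/WT. All exposed samples were lower, and the log2 fold change of -0.85 (SE 0.224) just missed the threshold, with a limma adjusted p of 0.0507. Under 4 of 18 alternative settings TAP2 passed. TAPBP, or tapasin, had 12.24, 12.41 and 12.62 in CEM/WT_BTZ, against 12.46 and 13.01 in CEM/WT. These values overlap, and the difference was -0.26 (95% interval -0.71 to 0.2). B2M, the light chain, had 14.7, 14.71 and 14.74 in CEM/WT_BTZ, against 15.16 and 14.89 in CEM/WT. It was lower in all exposed samples by a small amount, -0.31 (95% interval -0.74 to 0.11, limma adjusted p = 0.288).

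HLA-B had levels of 14.33, 14.41 and 15.1 in CEM/WT_BTZ, against 14 and 14.02 in CEM/WT. Replicate 3 of CEM/WT_BTZ was the highest of all 11 samples, and the difference was 0.66 (SE 0.226, limma adjusted p = 0.0999). HLA-C had 15.2, 15.41 and 15.72 in CEM/WT_BTZ, against 14.63 and 15.14 in CEM/WT. The nearest samples of the groups almost touch, and the difference was 0.63 (SE 0.189, limma adjusted p = 0.0712). HLA-E had 14.07, 14.14 and 14.21 in CEM/WT_BTZ, against 13.63 and 13.66 in CEM/WT, a difference of 0.53 (SE 0.181, limma adjusted p = 0.102). HLA-F had 12.03, 12.33 and 12.74 in CEM/WT_BTZ, against 11.79 and 11.89 in CEM/WT, a difference of 0.58 (SE 0.211, limma adjusted p = 0.117). All 4 heavy chains were highest among exposed samples in replicate 3, the only one of that group labelled with Cy5. The fitted Cy5 minus Cy3 difference was 0.34 for HLA-B, 0.44 for HLA-C, 0.18 for HLA-E and 0.3 for HLA-F, and none of these dye terms passed the test (limma adjusted p of 0.99 for each). Without that replicate the difference was 0.42 for HLA-B and HLA-F, 0.65 for HLA-C and 0.58 for HLA-E, and none passed.

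Deviations from the group means were positively correlated for all 7 same-numbered combinations, which are not independent of each other. The use of the replicate number as a block was thus chosen from these same data. With the replicate number as a block, 5 of 9 members passed, beside 37.5% of all genes: NLRC5, TAP1, TAP2 (-0.88, limma adjusted p = 0.0171), HLA-C (0.62, limma adjusted p = 0.0214) and HLA-E (0.57, limma adjusted p = 0.0329). That fit has 2 residual degrees of freedom. In the value table normalized by the authors, HLA-B (0.75, limma adjusted p = 0.0489) and HLA-C (0.75, limma adjusted p = 0.0333) passed, together with NLRC5 and TAP1.

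**Figure D2:**
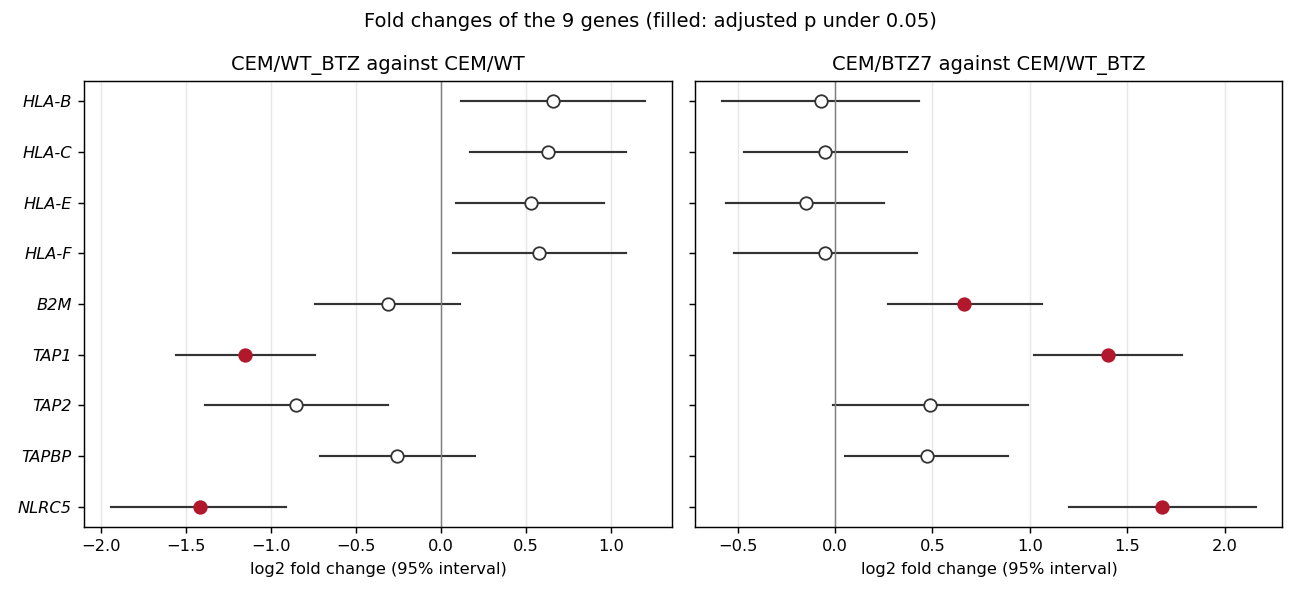
Log2 fold change of each of the 9 genes (points) with its 95% interval (lines), filled where the limma adjusted p is under 0.05. Left, CEM/WT_BTZ over CEM/WT, where NLRC5 (-1.42) and TAP1 (-1.15) are filled and the 4 heavy chains lie at 0.53 to 0.66. Right, CEM/BTZ7 over CEM/WT_BTZ, where NLRC5 (1.68), TAP1 (1.40) and B2M (0.66) are filled and the heavy chains lie near 0.

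Probes of the same gene were compared because class I heavy chain genes are near-identical in long stretches, and a probe of one may bind RNA of another. With all 37422 kept probes fitted and adjusted together, 3 of the 23 member probes rose and 2 fell in CEM/WT_BTZ over CEM/WT, beside 10.7% of all probes called in either direction. Those that fell were the TAP1 probe and the brightest NLRC5 probe. The second NLRC5 probe (A_23_P26583) read 4.11, 4.09 and 4.23 in CEM/WT_BTZ, against 4.96 and 5.95 in CEM/WT. It ran the same way as the brightest probe, by -1.28 (SE 0.317, limma adjusted p = 0.0521), near the background level. The remaining NLRC5 probe (A_23_P402892) gave 0.07 (95% interval -0.86 to 1.01), and the mean of all 3 probes took NLRC5 out of the call at -0.88 (limma adjusted p = 0.0565).

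The 3 probes that rose belong to HLA-C, B2M and TAPBP. HLA-C probe A_23_P95917 read 13.87, 13.98 and 14.37 in CEM/WT_BTZ, against 13.24 and 13.28 in CEM/WT, a change of 0.86 (SE 0.203, limma adjusted p = 0.0463). All 9 heavy chain probes lay between 0.43 and 0.99. The dim B2M probe A_24_P740662 read 7.88, 8.48 and 8.12 in CEM/WT_BTZ, against 5.78 and 6.7 in CEM/WT. It rose by 1.96 (SE 0.412, limma adjusted p = 0.0338), opposite in sign to the bright B2M probe, which is printed in 10 spots with a median SD of 0.072 between them. TAPBP probe A_32_P175462 read 13.32, 14.27 and 13.03 in CEM/WT_BTZ, against 9.89 and 10.61 in CEM/WT. It rose by 3.33 (SE 0.5, limma adjusted p = 0.0146), while the other 4 TAPBP probes lay between -0.44 and -0.14. It is a separate single-spot probe, and all 3 exposed samples lay above every other sample of the series. Probes of B2M and of TAPBP thus disagree, and with the mean of all probes the direction of both genes turns, to 0.45 and 0.44. The rising B2M and TAPBP probes were not annotated to a RefSeq transcript, unlike the brightest probe of each gene. Which transcript these probes bind was not tested.

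**Figure D3:**
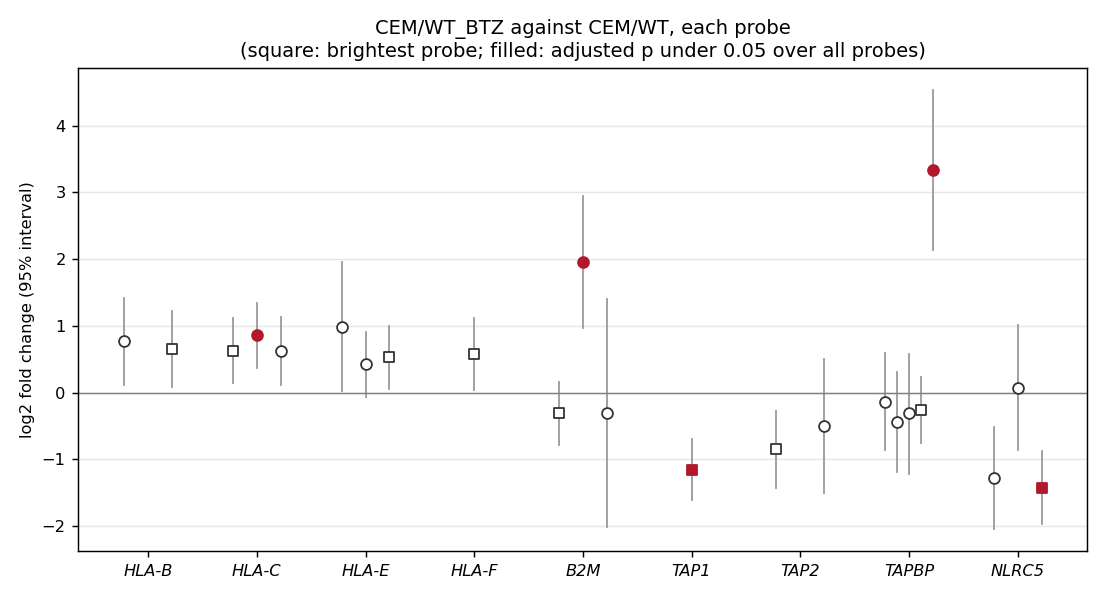
Log2 fold change of each of the 23 probes, CEM/WT_BTZ over CEM/WT, with its 95% interval (lines), by gene, the brightest probe as a square and probes with an adjusted p under 0.05 over all probes filled. HLA-B, HLA-C, HLA-E and HLA-F probes all lie above 0, while 1 probe of B2M (1.96) and 1 of TAPBP (3.33) stand apart from the other probes of their gene.

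At equal dose, CEM/BTZ7 was set against CEM/WT_BTZ to see which of these levels differ between resistant and parental cells under 7 nM BTZ. NLRC5, TAP1 and B2M were higher in CEM/BTZ7, by 1.68, 1.40 and 0.66 on the log2 scale, and no member was called lower. That is 3 of 9 members, beside 22.3% of all genes (2115 higher and 1752 lower). The heavy chains had nearly the same mean in both groups. The median over the members was 0.47, beside 0.006 over all genes. This comparison shares its 3 CEM/WT_BTZ samples with the one above. For 5 of 9 members the groups did not overlap, all 5 higher in CEM/BTZ7, beside 42.6% of all genes.

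NLRC5 read 9.58, 9.75 and 9.69 in CEM/BTZ7, against 8.35, 7.88 and 7.89 in CEM/WT_BTZ, a 3.21-fold difference (log2 1.68, SE 0.199, limma adjusted p = 0.0035). The second NLRC5 probe rose likewise, by 2.24 (SE 0.293, limma adjusted p = 0.00653). It read 6.3, 6.35 and 6.67 in CEM/BTZ7, against 4.11, 4.09 and 4.23 in CEM/WT_BTZ, the latter near the background level. The remaining NLRC5 probe (A_23_P402892) did not pass, with a difference of 0.54 (SE 0.36, limma adjusted p = 0.36). TAP1 read 13.2, 13.27 and 13.28 in CEM/BTZ7, against 11.81, 11.85 and 11.85 in CEM/WT_BTZ, a 2.64-fold difference (log2 1.40, SE 0.158, limma adjusted p = 0.00311). Both genes passed under all 18 alternatives, with adjusted p up to 0.0249 for NLRC5 and 0.0265 for TAP1. B2M read 15.39, 15.35 and 15.34 in CEM/BTZ7, against 14.7, 14.71 and 14.74 in CEM/WT_BTZ (log2 0.66, SE 0.164, limma adjusted p = 0.0334). Its call held under 4 of 18 alternatives only. It was lost with the removal of any single sample of CEM/WT_BTZ or CEM/BTZ7 (limma adjusted p 0.0555 to 0.112) and of either CEM/WT sample (difference 0.63). Scaling to the 75th percentile (difference 0.38) and the value table normalized by the authors (0.38, limma adjusted p = 0.178) ended it too. So did fitting these groups alone (limma adjusted p = 0.0632) and adjusting over all probes (limma adjusted p = 0.0538). The dim B2M probe fell by 1.94 (SE 0.382, limma adjusted p = 0.0205), and the mean of the 3 B2M probes turned to -0.33.

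TAP2 read 7.01, 7.14 and 7.15 in CEM/BTZ7, against 6.33, 6.81 and 6.6 in CEM/WT_BTZ, a difference of 0.49 (SE 0.207, limma adjusted p = 0.142). TAPBP read 13.01, 13.11 and 12.89 in CEM/BTZ7, against 12.24, 12.41 and 12.62 in CEM/WT_BTZ, a difference of 0.47 (SE 0.174, limma adjusted p = 0.103). Neither gene's groups overlapped. With the replicate block both passed, TAP2 at 0.52 (limma adjusted p = 0.0338) and TAPBP at 0.49 (limma adjusted p = 0.0248), which made 5 of 9 members beside 44% of all genes. TAPBP probe A_32_P175462 fell by 2.56 (SE 0.463, limma adjusted p = 0.016), again opposite in sign to the brightest TAPBP probe. Of the 23 probes, 3 were called higher and 2 lower, beside 16.3% of all probes.

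The heavy chains gave no call at equal dose. HLA-B averaged 14.65 ± 0.13 in CEM/BTZ7 and 14.61 ± 0.42 in CEM/WT_BTZ (SD, n = 3 each), and the fitted difference was -0.07 (95% interval -0.58 to 0.43). HLA-C averaged 15.54 ± 0.27 in CEM/BTZ7 and 15.44 ± 0.26 in CEM/WT_BTZ, a fitted difference of -0.05 (95% interval -0.47 to 0.37). For these genes the sign of the fitted value is the reverse of that of the means because 2 of 3 CEM/BTZ7 samples and 1 of 3 CEM/WT_BTZ samples carry Cy5, which the fit allows for. HLA-E had -0.15 (95% interval -0.56 to 0.25) and HLA-F -0.05 (95% interval -0.52 to 0.42). Over these 4 genes the intervals ran from -0.58 to 0.43 on the log2 scale.

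CEM/BTZ7 under drug was also set against untreated CEM/WT. No member passed in limma, where 3.44% of all genes did. At an unadjusted limma p under 0.05 there were HLA-B, HLA-C and HLA-F, each higher in CEM/BTZ7. The share of all genes under that looser threshold was not computed, so it singles out no member. By its brightest probe NLRC5 read 9.58 to 9.75 in CEM/BTZ7, against 9.32 and 9.55 in CEM/WT, a difference of 0.26 (95% interval -0.26 to 0.77). Its dimmer probes differed more, by 0.96 for A_23_P26583 (95% interval 0.2 to 1.72, limma adjusted p = 0.258) and 0.62 for A_23_P402892 (95% interval -0.32 to 1.55). TAP1 read 13.2 to 13.28 in CEM/BTZ7, against 12.91 and 13.07 in CEM/WT, a difference of 0.25 (95% interval -0.16 to 0.66). HLA-B differed by 0.59 (95% interval 0.04 to 1.13, limma adjusted p = 0.294) and HLA-C by 0.58 (95% interval 0.13 to 1.04, limma adjusted p = 0.207). HLA-B read 14.52 to 14.79 in CEM/BTZ7, above both CEM/WT samples. TAP2 was the only member below both CEM/WT samples, at -0.36 (95% interval -0.9 to 0.18). Groups did not overlap for 8 of 9 members, 7 of them higher in CEM/BTZ7, beside 33.4% of all genes.

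The higher-level sublines have 1 sample each, so their differences have no replicate of their own and take their error from the spread of the other groups. None of the members passed in limma for CEM/BTZ100 (2.59% of all genes did), CEM/BTZ200 (3%) or CEM/BTZ-200 (3.07%) over CEM/WT. By size, the largest fitted log2 difference of a member was -0.84 in CEM/BTZ100 (NLRC5), -0.95 in CEM/BTZ200 (NLRC5) and 0.86 in CEM/BTZ-200 (HLA-C). NLRC5 read 8.67 in CEM/BTZ100, 8.57 in CEM/BTZ200 and 10.15 in CEM/BTZ-200, against 9.55 and 9.32 in CEM/WT. By this probe it was lower in both sublines under drug than in CEM/WT and highest of all 11 samples in the subline without drug. The log2 fold changes over CEM/WT were -0.84 (95% interval -1.56 to -0.12, limma adjusted p = 0.261) in CEM/BTZ100, -0.95 (95% interval -1.67 to -0.23, limma adjusted p = 0.201) in CEM/BTZ200 and 0.79 (95% interval 0.07 to 1.51, limma adjusted p = 0.221) in CEM/BTZ-200. The other NLRC5 probes did not share the lower level in CEM/BTZ100, with 0.39 for A_23_P26583 and 0.42 for A_23_P402892, and gave -0.49 and -0.11 in CEM/BTZ200. Both were highest of all 11 samples in CEM/BTZ-200, by 2.04 and 1.13 over CEM/WT. With the mean of the 3 probes NLRC5 differed by -0.01 in CEM/BTZ100, -0.52 in CEM/BTZ200 and 1.32 in CEM/BTZ-200.

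TAP1 read 12.3 in CEM/BTZ100, 13.17 in CEM/BTZ200 and 13.64 in CEM/BTZ-200, against 12.91 and 13.07 in CEM/WT. CEM/BTZ100 was the only sample outside CEM/WT_BTZ that lay below both CEM/WT samples, at -0.67 (95% interval -1.24 to -0.1, limma adjusted p = 0.259). TAPBP read 12.35 in CEM/BTZ100, 13.23 in CEM/BTZ200 and 13.63 in CEM/BTZ-200, against 12.46 and 13.01 in CEM/WT. Its fold changes were -0.22, 0.66 and 0.74, in the same order. B2M read 15.21, 15.24 and 15.13 in CEM/BTZ100, CEM/BTZ200 and CEM/BTZ-200, against 15.16 and 14.89 in CEM/WT, with differences of 0.13 to 0.19. TAP2 read 7.06, 7.14 and 7.46 in these 3 sublines, against 7.28 and 7.61 in CEM/WT.

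Among the heavy chains, HLA-B read 14.35 in CEM/BTZ100, 14.54 in CEM/BTZ200 and 14.82 in CEM/BTZ-200, above both CEM/WT samples (14 and 14.02) in each. HLA-C read 15.09, 15.34 and 15.96 in the same order, against 14.63 and 15.14 in CEM/WT, and its largest difference was 0.86 in CEM/BTZ-200 (95% interval 0.22 to 1.49, limma adjusted p = 0.148). HLA-F read 11.88, 12.39 and 12.78, against 11.79 and 11.89 in CEM/WT. HLA-E read 13.43, 14 and 14.22, against 13.63 and 13.66 in CEM/WT. CEM/BTZ100 was thus the subline with heavy chain levels nearest to CEM/WT, between -0.12 and 0.51 on the log2 scale.

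The 200 nM subline was also sampled with and without drug, as 1 sample each. CEM/BTZ200 carried Cy3, and the sample from weeks to months of drug-free culture, CEM/BTZ-200, carried Cy5. Drug exposure and length of drug-free culture cannot be told apart in this comparison. None of the members passed in CEM/BTZ200 over CEM/BTZ-200, where 0.317% of all genes did. NLRC5 had the largest difference of the 9, with 8.57 in CEM/BTZ200, against 10.15 in CEM/BTZ-200. The fitted log2 difference, which allows for the dye, was -1.74 (SE 0.372, 95% interval -2.64 to -0.85), with an unadjusted p of 0.00285 and a limma adjusted p of 0.161. TAP1 differed by -0.43 (95% interval -1.14 to 0.28), and the 4 heavy chains by -0.18 to 0.06. The difference of the drug effects, that of 7 nM in the parental line minus that of 200 nM in the 200 nM subline, sets unequal doses side by side and called 0.0748% of all genes and none of the members. For NLRC5 it was 0.32 (95% interval -0.69 to 1.32, limma adjusted p = 0.835). For TAP1 it was -0.72 (95% interval -1.52 to 0.08, limma adjusted p = 0.436) and for HLA-C 0.81 (95% interval -0.07 to 1.7, limma adjusted p = 0.431). No member had an unadjusted p under 0.05 for this difference, and intervals this wide do not show that the effects were alike.

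Correlations between the members over the 11 samples ranged widely. HLA-B, HLA-C, HLA-E and HLA-F had Pearson correlations of 0.74 to 0.93 with each other. TAP1 and NLRC5 correlated at 0.9, TAP1 and TAPBP at 0.84, TAP1 and TAP2 at 0.81, and B2M with TAP1 at 0.78. TAPBP correlated with genes of both kinds, with 0.64 to NLRC5 and TAP2 and 0.49 to B2M, but 0.61 to HLA-C and 0.59 to HLA-F. Between NLRC5 and the 4 heavy chains the correlation was -0.09 to 0.11. These are descriptions over samples that share groups and dyes, and heavy chain probes may bind each other's RNA. The 5 other tested genes closest to the mean pattern of the members were TLE3 (r = 0.97), NEO1 (0.95), ZNF655 (0.95), POFUT1 (0.95) and CCDC127 (0.94), over the same 11 samples. That mean pattern blends unlike members: it stood at -0.42, -0.32 and -0.15 in CEM/WT_BTZ, at 0.23, 0.35 and 0.15 in CEM/BTZ7, and at -0.16 and -0.03 in CEM/WT, as log2 relative to each gene's mean.

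The rest of the pathway was followed with lists of genes. Their counts stand beside 15.5% of all genes called in CEM/WT_BTZ over CEM/WT, in either direction. In CEM/BTZ7 over CEM/WT_BTZ that share was 22.3%. A list count near or below the share says nothing particular about the list. Of 12 measured peptide supply genes, 4 fell and 1 rose in CEM/WT_BTZ over CEM/WT. Those that fell were the immunoproteasome subunits PSMB8 (-1.63, limma adjusted p = 0.0392) and PSMB9 (-1.43, limma adjusted p = 0.00993) and both subunits of the PA28 proteasome activator, PSME1 (-1.11, limma adjusted p = 0.0153) and PSME2 (-1, limma adjusted p = 0.0182). The peptidase gene NRDC rose by 0.89 (limma adjusted p = 0.0187). The median of the list was -0.49. At equal dose the same 4 genes, and none of the other 8, were higher in CEM/BTZ7, by 1.75 to 2.13. PSMB9, which lies head to head with TAP1, read 11.92, 11.53 and 11.44 in CEM/WT_BTZ, against 12.99 and 13.12 in CEM/WT. Its correlation with NLRC5 over the 11 samples was 0.91.

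**Figure D4:**
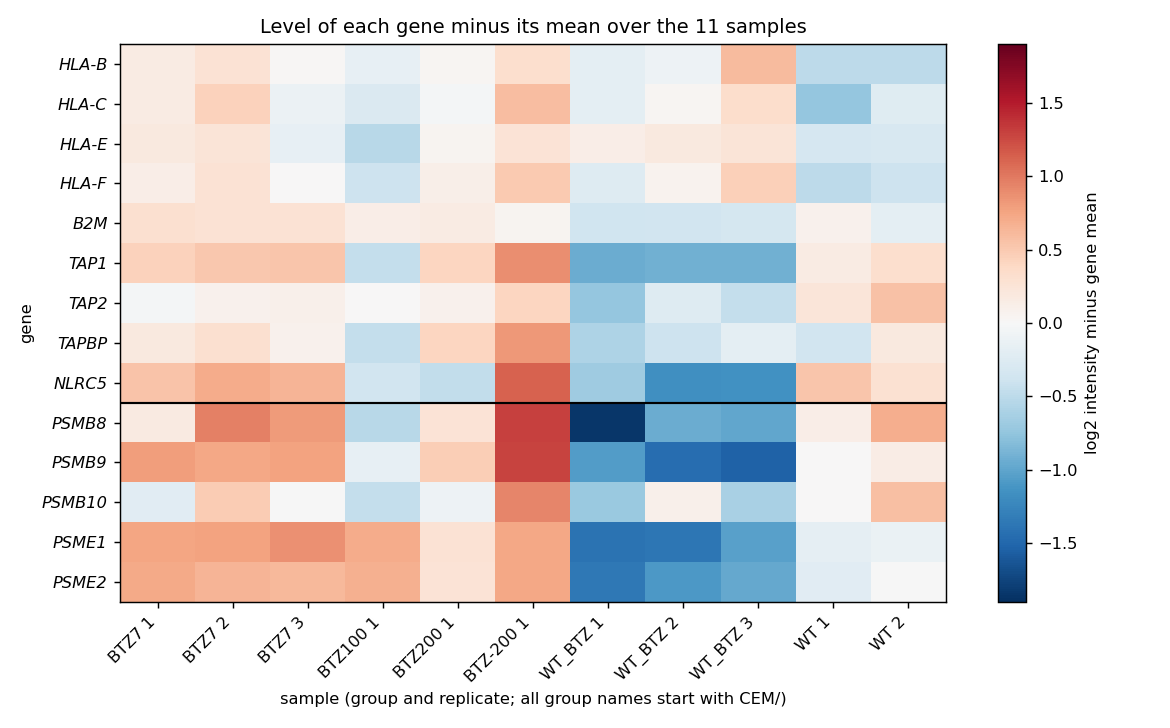
Level of each gene (rows) minus its own mean over the 11 samples (columns, by group and replicate), as log2 intensity, red above and blue below the mean. The 9 class I genes stand above the line and 5 immunoproteasome and PA28 genes below it. NLRC5 and TAP1 are at -0.68 to -1.16 and -0.95 to -0.91 in CEM/WT_BTZ, as PSMB9 is (-1.06 to -1.53), while HLA-B, HLA-C and HLA-F are lowest in a CEM/WT sample and HLA-E in CEM/BTZ100.

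Of 10 measured genes for trimming and loading in the endoplasmic reticulum, 1 rose in CEM/WT_BTZ over CEM/WT, namely the chaperone gene HSPA5 (2.00, limma adjusted p = 0.0291). In CEM/BTZ7 over CEM/WT_BTZ, 3 were higher and 2 lower. The trimming peptidase genes ERAP1 (1.68, limma adjusted p = 0.00413) and ERAP2 (0.81, limma adjusted p = 0.0284) and the tapasin-related TAPBPL (0.79, limma adjusted p = 0.0392) were higher. HSPA5 (-1.56, limma adjusted p = 0.0367) and PDIA3 (-0.77, limma adjusted p = 0.0356), a disulfide isomerase of the loading complex, were lower. Of 14 measured other heavy chain and class I-like genes, 2 rose and 1 fell in CEM/WT_BTZ over CEM/WT. The stress ligand genes ULBP2 (2.10, limma adjusted p = 0.00942) and MICB (0.80, limma adjusted p = 0.0332), whose products bind the NKG2D receptor of natural killer cells, rose. FCGRT, which encodes the neonatal Fc receptor, fell by 1.19 (limma adjusted p = 0.0382). The measured HLA genes of this list, HLA-G (0.67), HLA-H (1.05) and HLA-J (0.64), were higher as the member heavy chains were. They did not pass either (limma adjusted p 0.0652 to 0.13), and binding of each other's RNA was not tested. At equal dose 4 of the 14 were lower in CEM/BTZ7, namely ULBP2 (-1.85), MICB (-0.70), RAET1E (-1.73) and PROCR (-2.99). RAET1E, of the same ligand family, was also lower in CEM/BTZ7 (-2.46) and CEM/BTZ200 (-2.34) than in CEM/WT. Its probe read 4.25 in CEM/BTZ200, close to the background of 4.138 there, so the size of that difference is uncertain. In CEM/BTZ100 and CEM/BTZ-200 its probe was not above background, so no fold change is given there, although both comparisons called it lower.

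Of 21 measured regulators of class I transcription, SOCS1, which encodes an inhibitor of interferon signalling, was the only one called in CEM/WT_BTZ over CEM/WT. It rose by 1.88 (SE 0.303, limma adjusted p = 0.0122), with 8.89, 9.31 and 9.28 in CEM/WT_BTZ, against 6.85 and 7.79 in CEM/WT. RFX5, RFXAP and RFXANK, which encode the RFX factor through which NLRC5 reaches DNA, had -0.49, -0.59 and -0.28 (limma adjusted p 0.217, 0.075 and 0.615). IRF1, an interferon-induced activator of class I genes, had 0.27 (limma adjusted p = 0.338). In CEM/BTZ7 over CEM/WT_BTZ, 2 were higher and 4 lower: RFXAP (0.97, limma adjusted p = 0.0109) and the interferon gamma receptor subunit gene IFNGR2 (2.56, limma adjusted p = 0.00376) were higher. SOCS1 (-2.31, limma adjusted p = 0.00376), IFNGR1 (-1.21, limma adjusted p = 0.0081) and the NF-kappa B subunit genes NFKB1 (-0.82, limma adjusted p = 0.0188) and RELA (-0.67, limma adjusted p = 0.0351) were lower. IFNGR2 was higher than in CEM/WT in CEM/BTZ7 (2.73, limma adjusted p = 0.0102) and CEM/BTZ100 (3.01, limma adjusted p = 0.0282).

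Of 31 measured interferon-stimulated genes, 4 rose and 7 fell in CEM/WT_BTZ over CEM/WT, with a list median of -0.01. The antiviral genes IFITM1 (-3.29), IFITM2 (-3.02) and IFITM3 (-2.93) fell most, whereas IFI44 (1.89) and IFIT5 (1.51) rose. At equal dose 9 were higher and 2 lower in CEM/BTZ7, with USP18 (3.63), MX1 (3.02) and OAS3 (2.27) among the higher ones, and the list median was 0.23. None of 12 measured class II genes passed in any of the comparisons by limma, with list medians between -0.62 and 0.01 except 0.15 for the difference of the drug effects. Of the T lymphoblast markers, 4 of 9 fell in CEM/WT_BTZ over CEM/WT (CD2, CD5, CD7 and LCK, by 1.02 to 1.77), beside 15.5% of all genes called. The list median was -0.86. PTPRC went the other way, with 11.93, 11.44 and 11.33 in CEM/WT_BTZ, against 10.9 and 10.02 in CEM/WT. At equal dose 5 were higher in CEM/BTZ7 (CD2, CD3D, CD3E, CD3G and LCK) and 1 lower (PTPRC), beside 22.3% of all genes. The median there was 1.14, and CD5 and CD7 were not called.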

How the data were processed

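The 11 RNA samples were hybridised to Agilent 4x44K whole human genome arrays, each with 1 dye (6 Cy3, 5 Cy5), while the sources used here do not pair samples to arrays. The deposited intensity table holds processed signal intensities from Feature Extraction, not normalized between arrays, and in the deposited value table the authors gave log2 values after background correction, loess and quantile normalization with limma. Tool versions were not given in the sources used here. Every value column was mapped to a sample by its name.

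From the intensities (45015 spots), quantile normalization over all spots, log2 and averaging of repeated spots gave 41000 probes. The 37422 probes above the 95th percentile of 153 negative control spots in at least 2 samples were kept, and the brightest probe stood for each of 17372 genes. Of the probes, 29203 were named through the gene identifier of the platform annotation, 11 through an accession and 30 as annotated, 84 had several symbols and 11672 none. A model with the 6 groups and the dye was fitted to all genes with limma 3.58.1 in R 4.3.3 (4 residual and 2.4 prior degrees of freedom), followed by Benjamini-Hochberg adjustment across the genes, with calls at an adjusted p under 0.05. The dye term called 0 genes. Groups of 1 sample are assumed to vary like the others. The scripts were tested on simulated data. The number of arrays limits the precision.

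Named in the text are all members, genes of the pathway lists that were called in a comparison, and regulators given as background. The other measured HLA heavy chain genes and the 5 genes that correlated best with the mean of the members are named too. The members and lists were chosen with earlier results of these data known. Deviations from the group means correlated at 0.295 to 0.534 for the 7 same-numbered sample combinations and at -0.465 to 0.072 for the 14 others. These values are not independent. Deviations of the 2 CEM/WT samples mirror each other, and centring on group means ties the unmatched combinations to the same-numbered ones. The numbers were taken as pairs from the data alone, since the labels name no shared culture or day. For CEM/BTZ7 the columns of the intensity table that carry replicates 1, 2 and 3 resemble columns 2, 3 and 1 of the value table, and each table was used by its own names. Should the order of the value table be right, intensity column 2 would be the Cy3 sample and column 3 a Cy5 sample. The dye term, fold changes adjusted for it, same-numbered combinations and replicate block would then be misassigned for CEM/BTZ7. Which order is right was not tested.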

Additional observations from a re-analysis of the deposited data

How the results depend on the processing

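In CEM/BTZ7 over CEM/WT_BTZ, the NLRC5 and TAP1 calls held under all 18 alternatives, whereas in CEM/WT_BTZ over CEM/WT they held under 14 and 15 of 18. The number of members called in CEM/WT_BTZ over CEM/WT, 2 in the main analysis (2692 of 17372 genes called), changed with the setting, as did the number of all genes called. It was 4 with the value table of the study, with a dye term (2861 of 17606 genes) or without (3391). With probes above background in every sample it was 4 (3363 of 13795 genes). It was 3, with TAP2 added, without a dye term (3264 of 17372 genes) or without the filter on dim probes (2805 of 18331 genes). With the mean of all probes of a gene it stayed at 2, but with HLA-C (0.7, limma adjusted p = 0.0443) in place of NLRC5. It was 5 with the replicate block (6518 of 17372) and 0 with only the groups compared (670 of 17372). Leaving out one replicate gave 0 to 2, with 0 without either CEM/WT sample, where 194 and 399 of all genes were called. In CEM/BTZ7 over CEM/WT_BTZ the 3 members became 5 with the replicate block, in which 7652 genes were called, and 2 on leaving out any one replicate. In CEM/BTZ-200 over CEM/WT the value table without a dye term called 1 member, HLA-C (0.99, limma adjusted p = 0.0404). B2M reversed in CEM/BTZ7 over CEM/WT_BTZ with the mean of its probes, at -0.33 (limma adjusted p = 0.382). The block changed no other call of a member. Of 63 results of single members, 46 kept their sign under each alternative and 17 did not. Of 1062 fold changes compared, 35 had the opposite sign with neither value called. Except for the values given here and in the text above, the cause of these changes was not tested. The dimmer 200 nM arrays and the single samples limit what could be seen there.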
